A study of Rattus norvegicus with 20 samples.

Results

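Binding of the NF-kB subunit p65 was followed at the promoters of 7 genes that decide between cell survival and cell death, 4 of which protect cells (Bcl2l1, Gadd45b, Cflar and Xiap) and 3 of which promote death (Bax, Casp1 and Casp2). They were taken by gene name from the peak lists and from all probes within 5000 bp of their listed transcription starts, and each lay in 1 of the 14540 tiled promoter regions that were measured. Livers came from male wild-type Sprague Dawley rats 8 to 10 weeks old, which for 5 weeks drank liquid food in which ethanol supplied 36% of calories, or pair-fed carbohydrate food, and then lost 70% of the liver by partial hepatectomy. The left lateral and median lobes taken out at surgery were the 0h samples, and the remnant liver was sampled at 1h or 6h. There were 3 arrays each at 0h and 1h and 4 arrays at 6h in each diet, 20 in all, each with p65-precipitated DNA of 1 liver sample. Since 0h samples came from other lobes than the later ones, per the labels, lobe and time from 0h cannot be told apart, and whole liver was used, so a change in the mix of cells cannot be told apart from a change in binding per cell.

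NF-kB p65 is held in the cytoplasm by inhibitor proteins until a cytokine such as tumor necrosis factor frees it to enter the nucleus, where it binds gene promoters. In the liver, tumor necrosis factor can both prime hepatocytes to divide after partial hepatectomy and kill them, and NF-kB is known for switching on genes that prevent the killing. Bcl2l1 encodes Bcl-xL, which keeps the mitochondrial outer membrane closed. Gadd45b encodes a stress protein that restrains JNK signalling, Cflar encodes cFLIP, which blocks caspase-8 at death receptors, and Xiap encodes a direct inhibitor of caspases. Bax encodes a protein that opens the mitochondrial outer membrane, Casp1 the caspase of inflammasomes, which matures interleukin-1 beta, and Casp2 an initiator caspase that responds to stress and DNA damage.

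The promoters of Bcl2l1, Gadd45b, Cflar and Casp1 are shown because listed p65 peaks lay over their starts on 2 or 3 arrays each. The sequences run from 250 bases before to 50 bases after the start, 5′ to 3′ on the gene's strand, and come from RefSeq on the rat assembly GRCr8, which is not the build of the array. Capitals mark GGGNNNNNCC, a loose form of the NF-kB site, on either strand.
Bcl2l1: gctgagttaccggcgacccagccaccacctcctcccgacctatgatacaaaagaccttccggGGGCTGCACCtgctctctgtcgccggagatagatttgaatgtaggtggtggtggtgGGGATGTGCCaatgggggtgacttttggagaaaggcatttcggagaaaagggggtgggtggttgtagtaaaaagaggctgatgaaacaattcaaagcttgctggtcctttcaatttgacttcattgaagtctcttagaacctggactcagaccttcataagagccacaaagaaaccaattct
Gadd45b: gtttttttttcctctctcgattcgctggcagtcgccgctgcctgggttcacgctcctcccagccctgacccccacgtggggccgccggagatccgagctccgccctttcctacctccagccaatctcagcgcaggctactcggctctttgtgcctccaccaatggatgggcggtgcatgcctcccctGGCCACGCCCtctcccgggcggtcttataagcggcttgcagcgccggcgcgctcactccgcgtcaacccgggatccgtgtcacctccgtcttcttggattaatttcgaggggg
Cflar: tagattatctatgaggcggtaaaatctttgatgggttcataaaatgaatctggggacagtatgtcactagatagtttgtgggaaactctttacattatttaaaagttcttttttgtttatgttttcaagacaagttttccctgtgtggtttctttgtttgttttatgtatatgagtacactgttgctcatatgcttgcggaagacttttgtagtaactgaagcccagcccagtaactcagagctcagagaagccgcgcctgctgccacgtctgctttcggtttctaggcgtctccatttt
Casp1: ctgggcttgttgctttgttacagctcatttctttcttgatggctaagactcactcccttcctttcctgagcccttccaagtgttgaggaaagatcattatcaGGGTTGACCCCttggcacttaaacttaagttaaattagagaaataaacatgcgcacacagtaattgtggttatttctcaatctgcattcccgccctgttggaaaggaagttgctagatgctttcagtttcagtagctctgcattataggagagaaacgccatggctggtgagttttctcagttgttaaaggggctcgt
The Bcl2l1 sequence is chr3:161763336-161763635 on the minus strand, for the second of 4 listed starts, whose spacing of 0, 135, 506 and 1525 bp is the same in the array files and in GRCr8. The other sequences are chr7:9430669-9430968 (minus strand, Gadd45b), chr9:67679299-67679598 (plus strand, Cflar) and chr8:10872580-10872879 (plus strand, Casp1). The printed Bcl2l1 sequence held 2 matches, beginning 188 and 132 bases before the start. The sequences at the other listed Bcl2l1 starts held 0. Listed peaks lay over the first listed start on 3 arrays and over the printed one on 2. Gadd45b held 1 match, at 63 bases before the start, and Casp1 held 2 that overlap, at 148 and 147 bases before it. Cflar held none, and Casp2, not printed, held 5. This loose form was found in 47.27% of 33469 promoters of the same length, so its presence sets no gene apart. The full NF-kB consensus was found in 7.514% of those promoters and in none of the printed ones, which says only that these letters are not in these windows.

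Promoter signal was the mean log2 ratio of the 500 bp window of each tiled region with the highest mean over all 20 arrays. The same values chose the window and were then tested, so a window could be chosen for signal that was high in only some groups. At Bax the group means in the window were 0.65 and 0.51 at 1h and from −0.10 to 0.12 at the other times. The deposited log2 ratios were multiplied by −1, since 99.9% to 100% of each array's listed peaks lay below 0, and were centred on each array's median. The direction of the deposited ratio was not stated, so "higher" and "lower" below rest on that turn. The 20 arrays held 2874 to 9387 listed peaks. Identifiers of the arrays placed them in 4 sets, called runs here, on 11 slides. The 0h arrays were in run 1 except replicate 2 of the ethanol diet, which was in run 2 on the same slide as replicate 1 of 1h in both diets. At Bcl2l1, Gadd45b and Bax this 0h array read like the 1h arrays, and whether its label is right was not tested, so the ethanol values at 0h and the fit with run as a term carry that doubt. It also had the widest spread of all probes (median absolute deviation 0.36). The other 0h arrays had 0.16 to 0.20, and the 1h arrays on its slide 0.35 in carbohydrate and 0.29 with ethanol. Whether this spread had a part in its high values was not tested. All other 1h and 6h arrays were in run 3, except replicate 1 of 6h in carbohydrate, alone in run 4. What the identifiers mark is not stated. A number in them, read here as the animal, occurs on 2 arrays for 4 animals. The titles gave the groups, since the source labels name 0h for later arrays too. P-values reflect the spread among arrays, part of which may be technical, and the number of arrays limits precision. Tests are two-sided limma tests with Benjamini-Hochberg adjustment over 14540 promoters, called at an adjusted p under 0.05, and differences are given ± SE.

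In carbohydrate-fed rats p65 signal at 1h was higher than at 0h at Bcl2l1, Bax, Gadd45b and Cflar and lower at Xiap, and the Casp1 and Casp2 promoters did not pass the test. That is 4 of 7 promoters higher, beside 8.5% of all promoters, and 1 of 7 lower, beside 2.37%. With means over the whole tiled region, which need no choice of window, 1929 of all promoters were higher and 3114 lower. None of the 5 members kept its call there. None of these 5 calls held with array run as a term in the fit, where the differences at Bcl2l1, Bax, Gadd45b and Cflar turned below 0. With that term 0 of all 14540 promoters were called higher and 5 lower (1236 and 344 without it). The median SE over all promoters was 0.24 with the term and 0.14 without it. Run and time cannot be told apart in this comparison. Between 1h and 6h the signal fell at Gadd45b and Bax in both diets and, with ethanol, also at Bcl2l1 and Xiap, while it rose at Casp2 in carbohydrate. In carbohydrate 1 of 7 was higher and 2 of 7 lower at 6h than at 1h (17.0% and 6.92% of all promoters), and with ethanol 0 were higher and 4 lower (7.83% and 16.2%). From 0h to 6h in carbohydrate Cflar was higher and Xiap lower, which is 1 of 7 each beside 18.7% and 1.99%. With ethanol no member was called at 1h against 0h (0.213% of all promoters higher and 0.0275% lower) or at 6h against 0h (0.365% and 0.633%), while 4 and 1 members had an unadjusted p under 0.05, as did 2381 and 3034 of all 14540 promoters. With arrays scaled to the same spread, 1125 promoters were higher and 874 lower at 1h than at 0h in carbohydrate (1236 and 344 unscaled), 2100 and 800 at 6h against 0h (2721 and 290), and with ethanol 1513 and 1906 at 6h against 1h (1138 and 2353) and 68 and 21 at 1h against 0h (31 and 4). Under that scaling Gadd45b at 1h against 0h (0.40, limma adjusted p = 0.0737) and Casp2 at 6h against 1h (0.44, limma adjusted p = 0.0638) lost their calls in carbohydrate. The comparisons of 1h and 6h with 0h share the 0h arrays, and those at 6h against 1h share the 1h arrays with them.

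**Figure D1:**
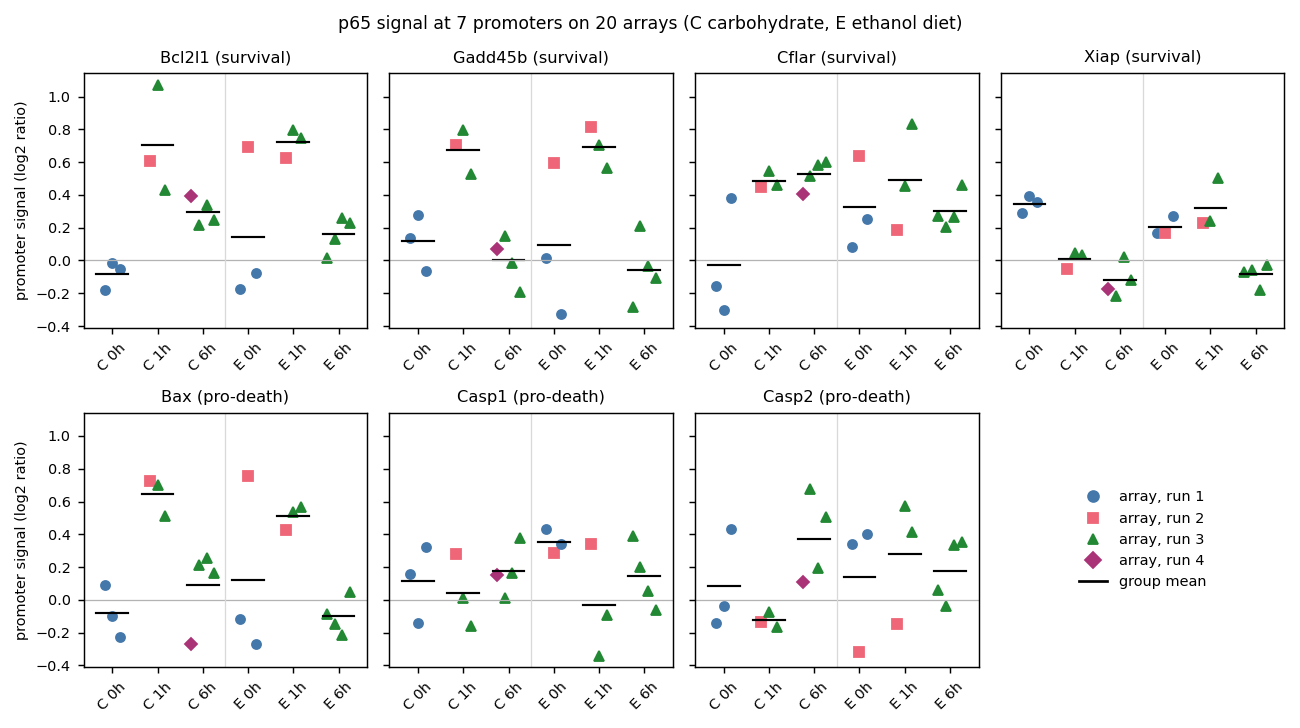
Each panel plots the promoter signal (log2 ratio, y axis) of 1 gene on the 20 arrays by diet and time (x axis), with symbols for the array run and bars for group means. At Bcl2l1, Gadd45b and Bax the 1h arrays lie between 0.42 and 1.07, and the single 0h array of run 2 (red square, ethanol) lies between 0.59 and 0.76.

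Bcl2l1, the gene of Bcl-xL, had the widest span of signal over the arrays among the 7 genes, from −0.18 to 1.07. In carbohydrate the 3 arrays at 0h were at −0.18, −0.02 and −0.05, those at 1h at 0.61, 1.07 and 0.43, and the 4 at 6h at 0.39, 0.22, 0.34 and 0.25. All 1h arrays were above all 6h arrays, and all 6h arrays above all 0h arrays. The rise to 1h was 0.79 ± 0.17 log2 (1.73-fold, limma adjusted p = 0.00705). The fall from 1h to 6h, −0.41 ± 0.16, did not pass (limma adjusted p = 0.0616), and 6h was 0.38 ± 0.16 above 0h (limma adjusted p = 0.0852). With ethanol the 0h arrays were at −0.18, 0.69 and −0.08, the 1h arrays at 0.63, 0.80 and 0.75, and the 6h arrays at 0.01, 0.13, 0.26 and 0.23. The fall from 1h to 6h was −0.56 ± 0.16 (limma adjusted p = 0.0121). The difference between 1h and 0h, 0.58 ± 0.17, missed the threshold (limma adjusted p = 0.0999), with 1 of the 3 arrays at 0h within the range of the 1h arrays. The window lay inside the transcribed part, 307 to 766 bp downstream of the start of NM_001033671 on chromosome 3 (143178674, minus strand, coordinates as in the files). In 500 bp bins the 1h signal in carbohydrate was 0.48 ± 0.05 (SD, n = 3) from 0 to 500 bp downstream and 0.65 ± 0.39 from 500 to 1000 bp downstream, against 0.00 ± 0.24 in the 500 bp upstream.

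Gadd45b, the gene of the JNK-restraining stress protein, rose at 1h and was back near 0 at 6h. In carbohydrate the 0h arrays read 0.14, 0.28 and −0.06, the 1h arrays 0.70, 0.79 and 0.53, and the 6h arrays 0.07, 0.15, −0.02 and −0.19. No 1h array overlapped with 0h or 6h. The rise was 0.56 ± 0.16 (1.47-fold, limma adjusted p = 0.0291) and the fall to 6h −0.67 ± 0.15 (limma adjusted p = 0.00298). With ethanol the 0h arrays read 0.02, 0.59 and −0.33, the 1h arrays 0.81, 0.70 and 0.56, and the 6h arrays −0.29, 0.21, −0.04 and −0.11. Here the 1h arrays lay above all 6h arrays, and the 0h array at 0.59 fell among them. The fall to 6h was −0.75 ± 0.15 (limma adjusted p = 0.00149), and the difference between 1h and 0h, 0.60 ± 0.16, missed the threshold (limma adjusted p = 0.0743). The window lay 215 to 664 bp downstream of the start on chromosome 7 (10291102, minus strand).

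Cflar, the gene of cFLIP, had its strongest window upstream, from −1739 to −1305 bp relative to the start on chromosome 9 (57309835, plus strand). In carbohydrate the 0h arrays stood at −0.16, −0.30 and 0.38, those at 1h at 0.45, 0.55 and 0.46, and those at 6h at 0.41, 0.52, 0.59 and 0.60. The later arrays were all above the 0h arrays, the closest being a 0h array at 0.38 and a 6h array at 0.41. Signal was 0.51 ± 0.17 higher at 1h (limma adjusted p = 0.0488, and 0.0648 with slide as a random block) and 0.56 ± 0.16 higher at 6h (limma adjusted p = 0.0152) than at 0h. With ethanol the arrays stood at 0.08, 0.64 and 0.25 at 0h, at 0.19, 0.45 and 0.84 at 1h and at 0.27, 0.20, 0.27 and 0.46 at 6h, with all 3 groups overlapping. A second place at Cflar, within 500 bp of the start, had a lower signal at 6h than at 1h, by −0.41 in carbohydrate (limma adjusted p = 0.0111) and by −0.67 with ethanol (limma adjusted p = 0.000481). In the upstream window the same differences were 0.04 and −0.19, and neither passed.

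Xiap, the gene of the caspase inhibitor, had a mean signal of 0.09 ± 0.21 (SD, n = 20). In carbohydrate its 0h arrays were at 0.29, 0.39 and 0.36, its 1h arrays at −0.05, 0.05 and 0.03 and its 6h arrays at −0.17, −0.21, 0.02 and −0.12. Every 0h array was above every later one. The fall was −0.34 ± 0.10 to 1h (limma adjusted p = 0.0372) and −0.47 ± 0.10 to 6h (limma adjusted p = 0.0024). With ethanol it was at 0.17, 0.17 and 0.27 at 0h, at 0.23, 0.24 and 0.50 at 1h and at −0.07, −0.06, −0.18 and −0.03 at 6h, so that only the 6h arrays stood below the rest, and it fell by −0.41 ± 0.10 from 1h to 6h (limma adjusted p = 0.0046). The 1h arrays of the ethanol diet were all above those of the carbohydrate diet. That difference, 0.31 ± 0.10, did not pass (limma adjusted p = 0.439) in the fit over all arrays, which did not pair them by slide. On the slides that held a 1h array of each diet it was 0.28, 0.19 and 0.47. At the other members the sign differed between those slides. The window lay from −1029 to −484 bp relative to the start on chromosome X (3047798, minus strand).

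Bax, the membrane-opening death gene, followed the time course of Bcl2l1 and Gadd45b. In carbohydrate the 0h arrays read 0.09, −0.10 and −0.22, the 1h arrays 0.73, 0.70 and 0.51 and the 6h arrays −0.27, 0.21, 0.25 and 0.17. The 1h arrays were above all others of that diet. The rise was 0.73 ± 0.17 (1.65-fold, limma adjusted p = 0.0107) and the fall to 6h −0.56 ± 0.16 (limma adjusted p = 0.0128). With ethanol the values were −0.12, 0.76 and −0.27 at 0h, 0.42, 0.54 and 0.57 at 1h and −0.08, −0.15, −0.21 and 0.05 at 6h. The highest value of the diet was thus a 0h array, and the fall from 1h to 6h was −0.61 ± 0.16 (limma adjusted p = 0.00811). The window lay at the edge of the tiled region, 606 to 1067 bp downstream of the start on chromosome 1 (95938176, minus strand), and within 500 bp of the start the 1h signal in carbohydrate was −0.12 below 0h (limma adjusted p = 0.559). Some probes within 5000 bp of this start belong to the region of the neighbouring gene Ftl1 and were left out of the Bax window.

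Casp1, the inflammasome caspase, had no single place of raised signal. In its window, from −1433 to −929 bp relative to the start on chromosome 8 (2027975, plus strand) with 4 probes, the carbohydrate arrays read 0.16, −0.14 and 0.32 at 0h, 0.28, 0.01 and −0.16 at 1h and 0.15, 0.01, 0.16 and 0.38 at 6h. Those groups overlapped, and 1h minus 0h was −0.07 ± 0.15 (limma adjusted p = 0.801). With ethanol the values were 0.43, 0.28 and 0.34 at 0h, 0.34, −0.34 and −0.09 at 1h and 0.39, 0.20, 0.05 and −0.06 at 6h. Over the whole tiled region, however, the 1h signal in carbohydrate was lower than at 0h by −0.33 (limma adjusted p = 0.00605), and it was higher at 6h than at 1h by 0.26 (limma adjusted p = 0.0108) and with ethanol by 0.23 (limma adjusted p = 0.0148). A window of 500 bp that holds whole probes moved to another place in this region and gave −0.54 for 1h against 0h (limma adjusted p = 0.0288).

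Casp2, the stress-responsive initiator caspase, was low at 1h in carbohydrate and higher at 6h. The carbohydrate arrays were at −0.14, −0.04 and 0.43 at 0h, at −0.14, −0.07 and −0.17 at 1h and at 0.11, 0.68, 0.20 and 0.51 at 6h. All 6h arrays were above all 1h arrays, by 0.50 ± 0.17 (limma adjusted p = 0.034). With ethanol the arrays were at 0.34, −0.32 and 0.40 at 0h, at −0.15, 0.57 and 0.41 at 1h and at 0.06, −0.04, 0.33 and 0.35 at 6h, and all groups overlapped. The window lay from −1119 to −665 bp relative to the start on chromosome 4 (70029727, plus strand).

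**Figure D2:**
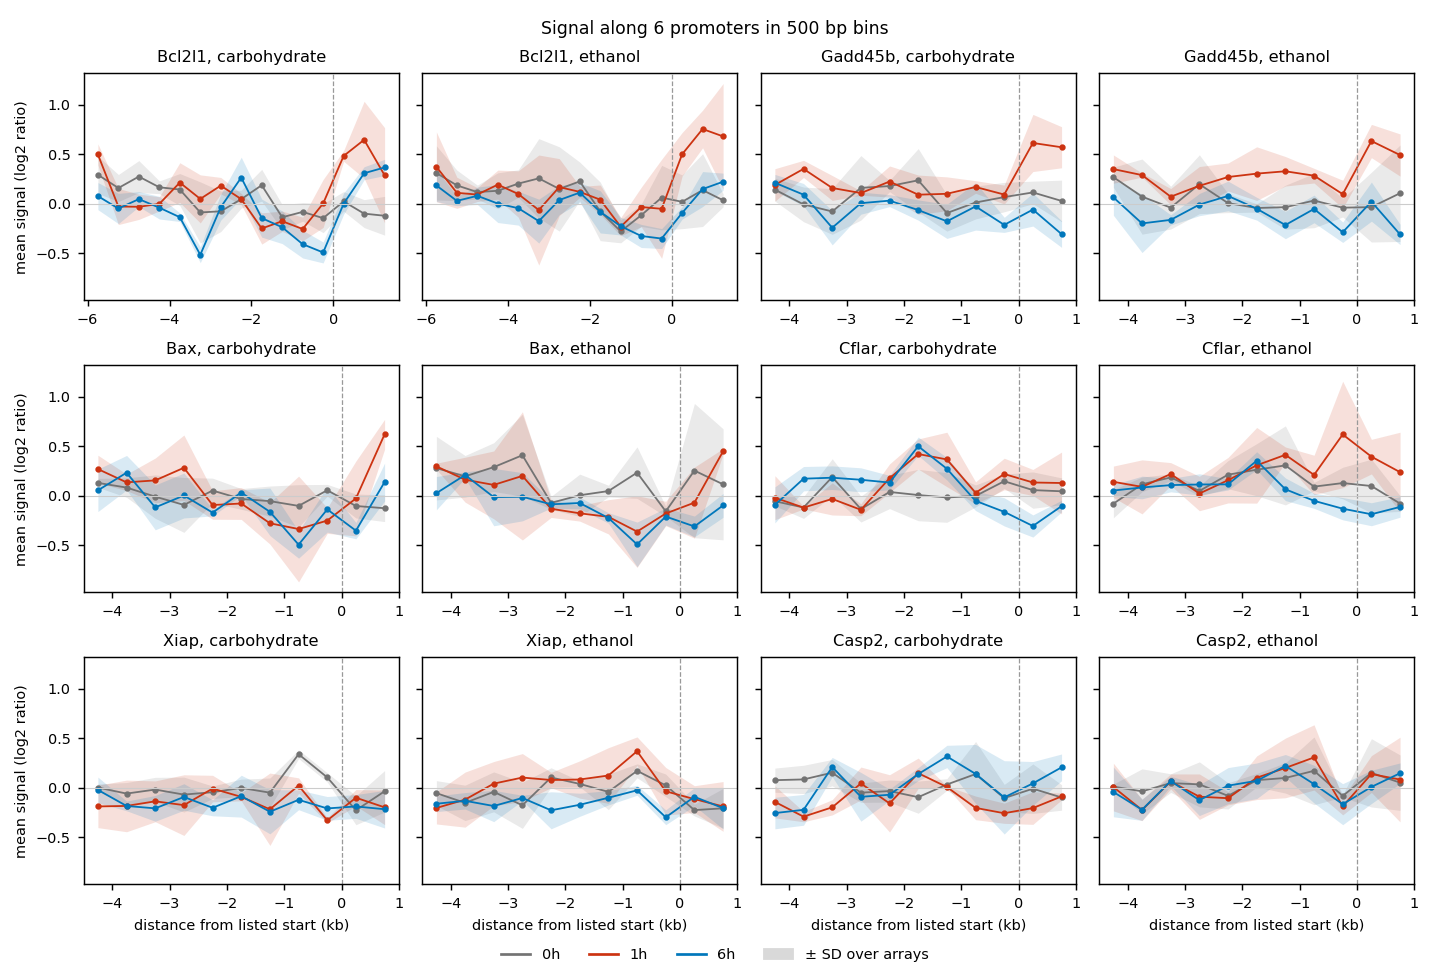
Each panel plots the mean signal (log2 ratio, y axis) in 500 bp bins against the distance from the listed start in kb (x axis; for Bcl2l1 the start of NM_001033671), for 1 gene and 1 diet, with 0h, 1h and 6h as lines and bands of ± 1 SD over arrays. At Bcl2l1 and Gadd45b the 1h line stands above the others in the first 1000 bp downstream of the start, reaching 0.65 and 0.61 in carbohydrate.

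The 0h arrays and the later ones were almost wholly in different runs, and the run moved with several of these differences. With array run as a term in the fit, 1h minus 0h in carbohydrate was −0.13 at Bcl2l1, −0.12 at Gadd45b, −0.13 at Cflar and −0.23 at Bax, and no member was called. Over all 14540 promoters 0 were called higher and 5 lower in that comparison. Xiap kept its direction there, at −0.36 for 1h and −0.52 for 6h against 0h, without passing. Cflar at 6h against 0h turned to −0.13. That fit takes the difference between runs 1 and 2 from 1 array alone, replicate 2 of 0h with ethanol. This array and replicate 1 of 1h with ethanol carried the same animal number and shared a slide, and between them the signal changed by −0.06 at Bcl2l1, 0.22 at Gadd45b, −0.33 at Bax and −0.45 at Cflar. Without that 0h array, 1h minus 0h with ethanol was 0.85 at Bcl2l1 (limma adjusted p = 0.00105), 0.85 at Gadd45b (limma adjusted p = 0.000936) and 0.70 at Bax (limma adjusted p = 0.00229). For another animal number with 2 arrays, 0h in run 1 and 1h in run 2 of carbohydrate, 1h minus 0h was 0.63 at Bcl2l1, 0.42 at Gadd45b, 0.83 at Bax, 0.76 at Cflar and −0.44 at Xiap. For 1h and 6h against 0h in carbohydrate no run held both times, so run and time cannot be told apart there.

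The calls of 1h against 0h in carbohydrate also leaned on single arrays. Leaving out 1 array left 0 to 3 of the 5 calls, and without replicate 2 of 1h, the array with Bcl2l1 at 1.07, none passed (Bcl2l1 0.60, limma adjusted p = 0.0588, and Bax 0.70, limma adjusted p = 0.0532). Without any 1 of the 6 arrays Xiap missed the threshold, at −0.31 to −0.37. Gadd45b missed it without replicate 1 or 3 of 0h or replicate 1 or 2 of 1h. Cflar passed only without replicate 3 of 0h, and its call at 6h was lost without replicate 1 or replicate 2 of 0h. With windows of whole probes Cflar (limma adjusted p = 0.0505) and Xiap (limma adjusted p = 0.0519) missed the threshold, a setting chosen after seeing the data. For 1h to 6h in carbohydrate the Casp2 call was lost without replicate 1, 2 or 3 of 1h or replicate 2 or 4 of 6h, and that of Bax without replicate 1 of either time. Of the 4 calls from 1h to 6h with ethanol none was lost when 1 array was left out.

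The change from 1h to 6h could be measured within run 3, with 2 or more arrays of each group. There the signal fell at Bcl2l1, Gadd45b and Bax in both diets: by −0.49, −0.68 and −0.40 in carbohydrate (limma adjusted p = 0.0186, 0.000588 and 0.0158) and by −0.61, −0.69 and −0.65 with ethanol (limma adjusted p = 0.00144, 0.00014 and 7.6e-05). Xiap fell with ethanol by −0.45 (limma adjusted p = 0.00206). Casp2 rose in carbohydrate by 0.58 (limma adjusted p = 0.00299), and Casp1 rose with ethanol by 0.36 (limma adjusted p = 0.023). That made 1 of 7 higher and 3 of 7 lower in carbohydrate (18.7% and 5.34% of all promoters within this run) and 1 higher and 4 lower with ethanol (10.8% and 24.6%). Within the run this fall was shared by both mitochondrial genes of opposite action, Bcl2l1 and Bax.

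**Figure D3:**
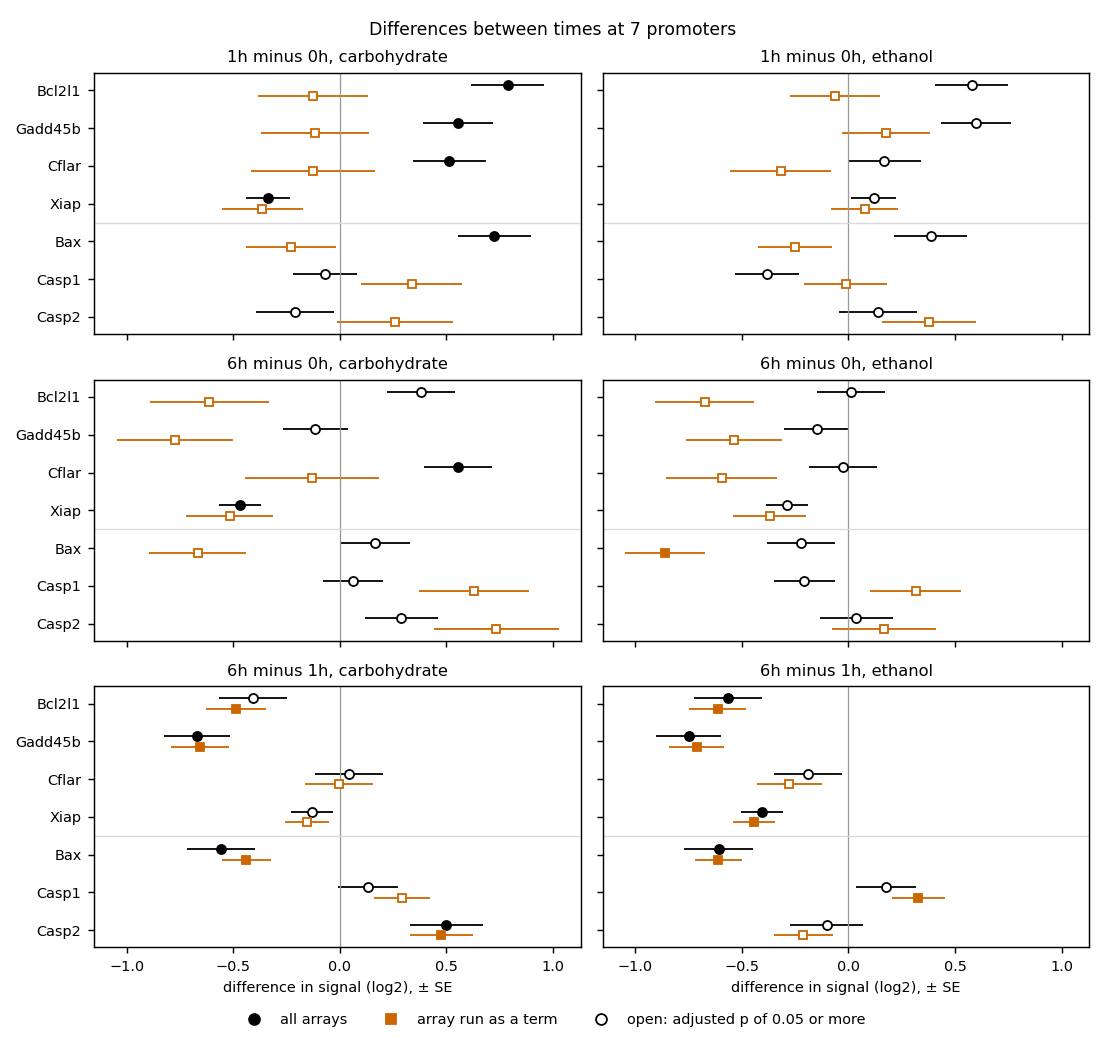
Each panel plots the difference in signal between 2 times (log2, x axis, ± SE) at the 7 genes for 1 diet, from all arrays (circles) and with array run as a term (squares), filled where the adjusted p is under 0.05. In the 2 panels of 1h minus 0h the squares of Bcl2l1, Cflar and Bax lie below 0 while their circles lie above it, and in those of 6h minus 1h the marks of Bcl2l1, Gadd45b and Bax lie together below 0.

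No member was called between the diets at 0h, 1h or 6h, and no diet difference in the changes over time was called, as was true of 0% of the 14540 promoters in each of these 6 comparisons (limma; 1114 to 2034 promoters had an unadjusted p under 0.05). At 1h Bcl2l1 was 0.02 ± 0.17, Gadd45b 0.02 ± 0.16 and Cflar 0.00 ± 0.17 higher with ethanol, and Bax differed by −0.14 ± 0.17. Casp2 was 0.41 ± 0.18 higher with ethanol at 1h over all arrays (limma adjusted p = 0.572). On the slides that held a 1h array of each diet it was 0.57 against −0.07 and 0.41 against −0.17 in run 3, and −0.15 against −0.14 in run 2. Within run 3 the difference was 0.61 ± 0.15 (limma adjusted p = 0.0267, with 2.16% of all promoters called higher), and the change from 1h to 6h differed between the diets by −0.90 ± 0.19 (limma adjusted p = 0.00514, with 10.2% of all promoters called lower). These values within the run rest on 2 arrays of each diet at 1h and were looked at after the fit over all arrays.

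The authors' peak lists, made for each array separately, gave a listed peak at Gadd45b on 9 of 20 arrays, at Bcl2l1 on 8, at Cflar on 7, at Bax and Casp2 on 6, at Xiap on 5 and at Casp1 on 3. Counting a gene as bound where at least 2 arrays of a group had a peak, 3 of 7 members were bound at 0h in carbohydrate (Gadd45b, Xiap and Casp1, beside 20.6% of all listed genes), 3 at 1h (Bcl2l1, Gadd45b and Bax, beside 28.8%) and 2 at 6h (Cflar and Casp2, beside 39.6%). With ethanol the count was 0 at 0h (19.8%), 6 at 1h (all but Casp1, beside 41.6%) and 0 at 6h (30.2%). At 1h Bcl2l1 and Gadd45b had a peak on all 6 arrays of both diets and Bax on 5. Peaks were counted wherever they lay around a gene, so arrays of a group could differ in place. With ethanol at 1h the only Gadd45b peak on replicate 3 was at −4048 bp from the start. The only Bax peak on replicate 1 was at −3076 bp, and the Casp2 peaks were at −989 and 705 bp. At 0h in carbohydrate the Gadd45b peaks were at −2803 and 577 bp. The highest authors' peak score of any member was 1.00 at Bcl2l1 on replicate 2 of 1h in carbohydrate, for a peak from 143177828 to 143178177 with a false discovery rate (FDR) of 0.0014. At Gadd45b the peaks from 10290055 to 10291104 on replicate 2 of 1h had an authors' score of 0.736 in carbohydrate and 0.601 with ethanol. The Casp1 peaks over the start were on 0h arrays alone, on replicate 3 of each diet, with authors' scores of 0.492 and 0.433. Without replicate 2 of 0h in carbohydrate the 3 bound members became 0, and without replicate 2 or replicate 3 of 1h with ethanol the 6 became 2 or 3. The 2 arrays with the most members (6 and 5) were the ones with the most peaks.

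**Figure D4:**
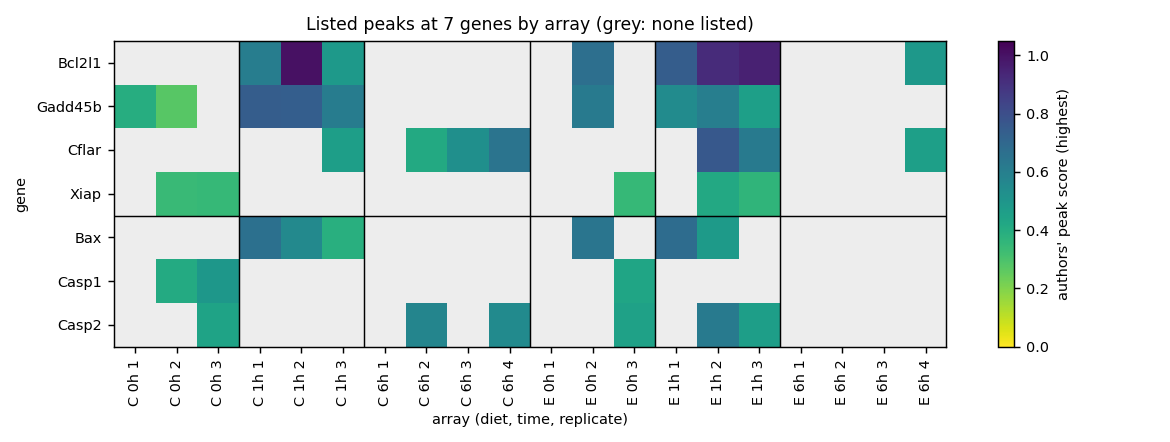
The map shows for each gene (y axis) and array (x axis, diet, time and replicate) the highest authors' peak score as colour, with grey where no peak was listed. Peaks are shown wherever they lay around the gene. At 1h Bcl2l1 and Gadd45b have a peak on all 6 arrays, while at 6h with ethanol 1 array lists peaks of 2 genes and the other 3 list none.

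Survival and pro-death promoters were set against each other as the mean of the 4 minus the mean of the 3 on each array, with no test, since the genes were chosen with results known. In carbohydrate this difference was −0.01, 0.18 and −0.02 at 0h, 0.14, 0.40 and 0.30 at 1h and 0.18, −0.13, 0.03 and −0.22 at 6h. With ethanol it was −0.19, 0.28 and −0.13 at 0h, 0.26, 0.29 and 0.37 at 1h and −0.14, 0.12, 0.02 and 0.03 at 6h. The mean was 0.28 ± 0.13 (SD, n = 3) at 1h in carbohydrate and 0.31 ± 0.06 (SD, n = 3) at 1h with ethanol, and between −0.04 and 0.05 in the other 4 groups. At 1h the mean of the survival genes was thus above the mean of the pro-death genes in both diets, as on the 0h array of run 2 at 0.28. This order rests on the turn of the ratio. In the deposited direction, where the sign reverses by construction and each window moves, the 1h means were −0.28 ± 0.18 in carbohydrate and −0.28 ± 0.17 with ethanol. The grouping by role hides unlike members: Xiap did not share the rise of the other survival genes in carbohydrate, and Bax did not share the course of the caspases. At 1h Bax (0.65 in carbohydrate and 0.51 with ethanol) was above Cflar (0.49 in both) and Xiap (0.01 and 0.32).

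**Figure D5:**
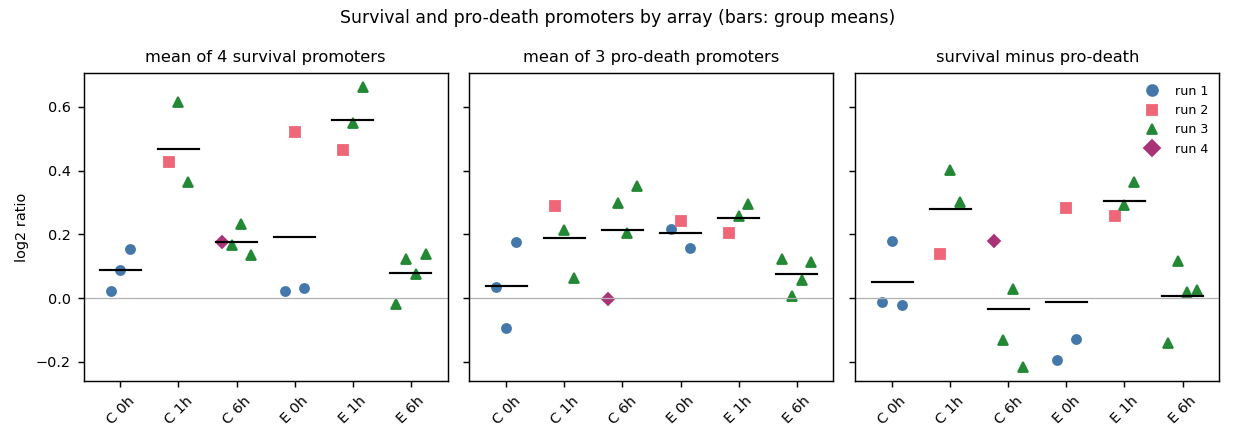
The panels plot for each array the mean signal (log2 ratio, y axis) of the 4 survival promoters, of the 3 pro-death promoters and their difference, by diet and time (x axis), with symbols for the run and bars for group means. The differences at 1h lie between 0.14 and 0.40, and the 0h array of run 2 lies at 0.28.

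Other genes of the same pathways were taken from lists of 18 survival and 37 pro-death genes, of which 14 and 30 were measured. Of 15 promoters of the other survival genes, 0 were higher and 1 lower at 1h than at 0h in carbohydrate (8.5% and 2.37% of all promoters). Their median was 0.10 beside 0.07 over all promoters. The lower one was Bcl2a1, a Bcl-2 relative (−0.38, limma adjusted p = 0.0414). From 1h to 6h with ethanol 0 were higher and 7 lower (7.83% and 16.2% of all promoters), with a median of −0.36 beside −0.08. The lower ones were led by the shared promoter of Flot1 and Ier3, an early response survival gene (−1.25, limma adjusted p = 0.00089). Next were Traf2, an adaptor of tumor necrosis factor receptors (−0.75), and the shared promoter of Bag1 and Chmp5 (−0.67). In carbohydrate 1 was higher, that of Abhd4 and Dad1 (0.47), and 1 lower, that of Flot1 and Ier3 (−0.82), beside 17.0% and 6.92% of all promoters. Of 30 promoters of other pro-death genes 3 were higher and 1 lower at 1h than at 0h in carbohydrate, near the shares of all promoters (8.5% and 2.37%). Those with the largest differences were Tnfrsf1a, the main receptor of tumor necrosis factor (0.85, limma adjusted p = 0.0269), Cycs, the cytochrome c that activates caspases (0.56), and Ripk1, a kinase of that receptor's complex (−0.48). From 1h to 6h in carbohydrate 4 were higher and 3 lower (17.0% and 6.92% of all promoters), with the shared promoter of Dffa and Pex14 at 0.51 and Tnfrsf1a at −0.86. With ethanol 1 was higher and 7 lower (7.83% and 16.2% of all promoters), with Tnfrsf1a at −0.94 and the shared promoter of Bad, Gpr137 and Kcnk4 at −0.67. From 0h to 6h in carbohydrate 1 of the survival promoters (Abhd4 and Dad1, 0.47) and 3 of the pro-death promoters were higher, beside 18.7% of all promoters. With ethanol none of either list was called at 1h against 0h (0.213% of all promoters higher and 0.0275% lower) or at 6h against 0h (0.365% and 0.633%).

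Markers of liver cell types were read at their promoters, where signal shows binding and not cell number, so they do not check the tissue. Of 7 hepatocyte marker promoters 3 were higher at 1h than at 0h in carbohydrate (8.5% of all promoters) and 4 lower at 6h than at 1h with ethanol (16.2%), the same directions as Bcl2l1 and Bax, with their median per array from 0.08 to 0.28 at 0h and from 0.42 to 0.70 at 1h in carbohydrate. From 1h to 6h in carbohydrate 1 of them was higher and 2 lower (17.0% and 6.92%). Of 6 Kupffer cell and macrophage marker promoters 3 were higher at 6h than at 0h in carbohydrate (18.7%), as Cflar was. In that comparison 2 of 7 stellate cell and endothelium, 1 of 7 lymphocyte and neutrophil and 0 of 7 hepatocyte marker promoters were higher. Of 7 stellate cell and endothelium marker promoters 3 were higher at 1h than at 0h in carbohydrate (8.5%). Of 7 lymphocyte and neutrophil marker promoters none was called at 1h against 0h in carbohydrate, and 1 was lower with ethanol (0.0275% of all promoters). The part of any of these in the members' differences was not tested.

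The promoters with 1 gene name whose signal followed each member most closely over the 20 arrays were found by Pearson correlation among 12154 promoters, as a description, since arrays share runs, slides and times. They were Eapp (r = 0.957) and Kng1 (0.934) for Bcl2l1, Slc25a15 (0.928) and Egr1 (0.924) for Gadd45b, and Ciao2b (0.907) and Ngp (0.892) for Cflar. For Xiap they were Golga5 (0.870) and Gabpb1 (0.860), and for Bax Unc13d (0.950) and RGD1306344 (0.950). For Casp1 they were Or7h7 (0.856) and Olr703 (0.826), and for Casp2 Gfra3 (0.857) and Chd6 (0.855).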

How the data were processed

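Chromatin was precipitated with a p65 antibody and hybridised with a reference to promoter arrays, per the labels' protocols. Channel labels name input DNA as the reference and the labelling text IgG-precipitated DNA, so it is not settled. The authors deposited log2 ratios of 713735 probes per array, whose centring and direction are not stated. The deposited peak lists hold the authors' score for each peak with an FDR, a p-value type measure of up to 0.19961, per the file headers. The peak caller and genome build are not given in the sources used here. Ratios were multiplied by −1 and centred on array medians. Probes were joined until gaps over 1000 bp, and windows of 500 bp needed 4 probes. limma 3.58.1 (R 4.3.3, lmFit, contrasts.fit, eBayes with trend) fitted 6 group means to 14540 promoters and 20 arrays, and was tested on simulated data. Of 14678 transcript accessions 13678 matched RefSeq's GRCr8 table, used for names. Python 3.11.15 with pandas 2.3.3 was used for the rest. The members and gene lists were chosen with earlier results of these data known. The named genes were the 7 members, the 2 nearest promoters of each, and up to 3 called promoters per other list and comparison, of which some are not reported here. Alternatives were other windows, scaling, direction, slide, animal, run and replicate blocks, stricter peaks and left-out replicates. 2 other readings of the 500 bp window were added after results were seen, and so were the fits within runs.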

Additional observations from a re-analysis of the deposited data

Results flagged for a closer look

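In the 4 arrays of 6h in carbohydrate, replicate 1 stood apart at the Bax promoter, with a signal of −0.27 where the other 3 lay between 0.17 and 0.25. It was the only such case among the 14 groups of 4 arrays examined (7 promoters in 2 diets at 6h). Chance alone flags about 1 in 20 such groups, so 1 case among 14 is no unusual number, and these groups share arrays. The array was the single one of run 4. Whether the run had a part in this was not tested. Without it the fall at Bax from 1h to 6h in carbohydrate was −0.44 (limma adjusted p = 0.0596), and within run 3 it was −0.40 (limma adjusted p = 0.0158).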

How the results depend on the processing

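Counts of called members, from limma at an adjusted p under 0.05, changed with array run, window, the direction of the ratio and single arrays. In the deposited direction 10 of the 14 called differences turned and the other 4 lost their call. A turn of sign follows there by construction, since the main values are the deposited ones multiplied by −1, so it is no check by itself. With array run as a term, 0 members were called at 1h or 6h against 0h in carbohydrate (5 and 2 without the term) and 1 at 6h against 0h with ethanol. Of all 14540 promoters, that fit called 0 higher and 5 lower at 1h against 0h in carbohydrate and 21 and 38 at 6h. At 6h against 0h with ethanol it called 65 higher and 517 lower. Bcl2l1 (−0.13), Cflar (−0.13), Gadd45b (−0.12) and Bax (−0.23) then turned for 1h against 0h in carbohydrate, as Cflar did for 6h (−0.13). With means over the tiled region none of the 5 members called at 1h against 0h in carbohydrate kept its call, the 1 call was Casp1 (−0.33), and 0 were called at 6h, while all promoters called at 1h were 1929 higher and 3114 lower. Means within 500 bp of the start left 0 in both, with Bax at −0.12 for 1h and Cflar at −0.34 for 6h. In the deposited direction, which also moves each window, 0 were called at 1h and 0 at 6h against 0h in carbohydrate, and 1 from 1h to 6h in each diet. There Xiap was at 0.030 and Gadd45b at −0.13 for 1h, and Xiap at 0.13 for 6h, against 0h in carbohydrate. From 1h to 6h Gadd45b was at 0.42, Bax at 0.16 and Casp2 at −0.16 in carbohydrate, and Bcl2l1 at 0.24, Xiap at 0.023, Gadd45b at 0.35 and Bax at 0.18 with ethanol. Scaling arrays to the same spread gave 2 calls for 1h against 0h with ethanol and lost 1 of the 5 in carbohydrate (Gadd45b). Within run 3, added after seeing the data, 1 member was called between diets at 1h and 1 in the diet difference from 1h to 6h. The cause of these changes was not tested.

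Replicate numbers did not follow the animal numbers, but at 1h the same-numbered arrays of both diets shared a slide. The mean correlation of deviations from group means was 0.07 over 46 same-numbered pairs (lowest −0.22) and −0.03 over other pairs. It was 0.17 over 11 same-slide pairs and 0.08 over 4 same-animal pairs. With the replicate number as a block, 1 member was called for 1h against 0h with ethanol, where 0 were without it.

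Leaving out 1 array gave 0 to 3 calls for 1h against 0h in each diet, 1 to 2 for 6h against 0h and 1 to 3 for 6h against 1h in carbohydrate, and 0 to 1 for the diet difference from 1h to 6h. Bound members were 0 to 2 at 0h, 1 to 2 at 6h in carbohydrate and 2 to 5 at 1h with ethanol. Peaks with an FDR of at most 0.05 left 0 bound at 0h and 1 at 6h in carbohydrate and 2 at 1h with ethanol, and peaks within 1000 bp of the start left 1 and 0 in carbohydrate. With an FDR of at most 0.05 Bax was no longer bound at 1h in either diet.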
